A study of Homo sapiens with 6 samples.

Results

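The transcripts described here are those of ATF4, the transcription factor at the centre of the integrated stress response, and of 9 genes known as its partners or targets, namely DDIT3, CEBPB, CEBPG, CHAC1, TRIB3, ASNS, STC2, DDIT4 and SESN2. They were taken by gene symbol from a table of 15496 genes, and all 10 had a row and passed the filter of a mean of at least 1 CPM (reads of a gene scaled to a common library size) that kept 14792 genes. They were measured in HEK293 cells, an established human embryonic kidney line grown in RPMI medium with serum, after treatment with B23, a quinolinol compound, or with DMSO, its solvent. There were 3 libraries per group from polyadenylated RNA of 1 cell line, and the labels state neither the dose nor the duration nor whether the replicates were separate cultures, so the spread between libraries may be technical. The 10 genes were chosen by name with the measured CPM difference between B23 and DMSO known, in particular that of CHAC1, so their own differences are a description without a test.

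In the integrated stress response, kinases that sense lack of amino acids, lack of heme, double-stranded RNA or unfolded proteins in the endoplasmic reticulum phosphorylate the translation factor eIF2. General translation then slows while that of the ATF4 mRNA increases, because upstream reading frames in it are passed over, so the amount of ATF4 mRNA is not a measure of ATF4 protein. ATF4 binds DNA with partners of the C/EBP family at composite sites called C/EBP-ATF response elements, and its targets serve amino acid supply, glutathione turnover, restraint of growth and cell death.

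The promoter sequences are shown for the genes in which such a site was found in the windows searched. They were chosen because CHAC1 and ASNS had the largest and the smallest difference among the 10 genes, with CPM as deposited. RefSeq windows on GRCh38.p14, from 250 bases before to 50 bases after an annotated start, were matched for all 10 genes and searched on both strands. Capitals mark the match to TGATGNAA, the core of the C/EBP-ATF response element, and each sequence reads 5′ to 3′ on the strand of its gene. Such elements outside these windows or with other letters were not searched for, so genes without a match may still hold one. The windows are chr15:40953221-40953520 on the plus strand for CHAC1, chr7:97872359-97872658 on the minus strand for ASNS and chr19:33373863-33374162 on the plus strand for CEBPG.
CHAC1: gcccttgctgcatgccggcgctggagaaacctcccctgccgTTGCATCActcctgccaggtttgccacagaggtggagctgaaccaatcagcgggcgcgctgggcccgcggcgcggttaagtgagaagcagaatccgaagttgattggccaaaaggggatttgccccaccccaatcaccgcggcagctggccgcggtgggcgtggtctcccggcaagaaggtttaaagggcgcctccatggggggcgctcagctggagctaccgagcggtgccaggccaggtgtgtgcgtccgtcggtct
ASNS: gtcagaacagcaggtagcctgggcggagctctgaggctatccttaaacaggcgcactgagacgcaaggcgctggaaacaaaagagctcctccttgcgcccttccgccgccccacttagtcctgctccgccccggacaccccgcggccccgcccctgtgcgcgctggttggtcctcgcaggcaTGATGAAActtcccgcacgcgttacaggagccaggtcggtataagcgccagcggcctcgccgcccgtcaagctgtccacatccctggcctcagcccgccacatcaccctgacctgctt
CEBPG: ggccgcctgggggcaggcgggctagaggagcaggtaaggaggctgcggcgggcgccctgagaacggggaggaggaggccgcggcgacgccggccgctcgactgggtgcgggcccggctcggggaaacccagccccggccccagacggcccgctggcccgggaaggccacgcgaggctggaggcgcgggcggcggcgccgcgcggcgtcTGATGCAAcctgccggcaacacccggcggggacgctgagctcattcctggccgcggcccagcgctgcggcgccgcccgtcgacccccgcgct

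The match began 209 bases before the start in CHAC1, where it lies on the opposite strand and reads TTGCATCA, 68 bases before it in ASNS (TGATGAAA) and 42 bases before it in CEBPG (TGATGCAA). These 3 of 10 genes compare with 2.79% of the 10938 genes of the table that have a window, and 3.62% of all 35116 windows held the letters. Neither the cAMP response element TGACGTCA nor the C/EBP palindrome TTGCGCAA, held by 3.79% and 0.293% of those genes, was found in the windows of the 10 genes. The hypoxia response core ACGTG was found in ATF4 and DDIT4, and 32.2% of those genes hold it. Whether a match goes with the size of the difference was not tested, and a match of letters is not evidence of binding.

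Each library held 40950318 to 47444126 reads in the listed genes. All 9 HEK293 markers had values, among them VIM at 366 to 719 CPM, and of 6 markers of other cell types COL1A1 was at 9.04 to 13.3 CPM and DCN at 0.0318 to 0.174 CPM, while 4 were not analysed here. In bulk RNA, fewer cells with a transcript and less of it per cell cannot be told apart, and each CPM value is a share of what was sequenced from its library. Of all genes tested with limma, 88.6% passed an adjusted p of 0.05, with 49.0% lower and 39.6% higher in B23, and their median log2 difference was -0.10.

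Of the 10 genes, 8 had all 3 B23 values below all 3 DMSO values, as did 49.1% of all tested genes. STC2 had all B23 values above all DMSO values, as did 39.8% of all tested genes, and ASNS overlapped. The 9 genes whose groups were apart in either direction stand against 88.9% of all tested genes, and since the genes were chosen with this contrast known nothing is read from their number. The median log2 difference of the 10 genes was -0.68 on the log2(CPM + 0.5) scale, and -0.64 without CHAC1. A level at least 2-fold lower in B23 was seen for CHAC1 and CEBPB, that is 2 of 10, against 17.8% of all tested genes.

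**Figure D1:**
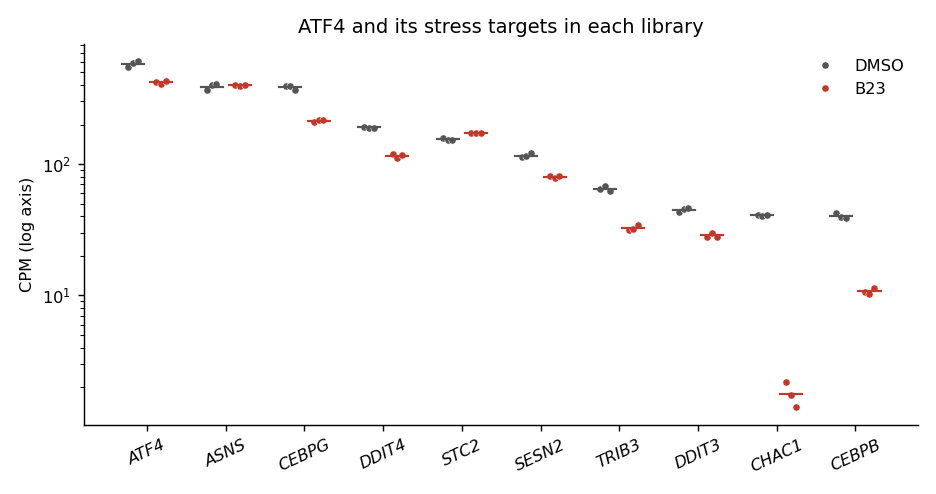
CPM of ATF4 and 9 stress targets on a log axis, with 1 point per library, a line at the mean of 3 libraries and genes ordered by their DMSO mean. CHAC1 is the gene with the widest gap, from about 40.9 CPM in DMSO to 1.78 CPM in B23, while the points of ASNS overlap.

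ATF4 itself was at 548, 588 and 606 CPM in the DMSO libraries and at 419.8, 409 and 432 CPM in the B23 libraries. All B23 values lay below all DMSO values, with means of 581 ± 29.7 and 420.4 ± 11.5 CPM (SD, n = 3), and the B23 mean was 27.6% lower. The log2 difference was -0.46 (SE 0.039), which is -0.36 relative to the median gene. ATF4 is encoded on chromosome 22 from 39519695 to 39522685 in GRCh38.

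Among the bZIP factors that pair with ATF4 or follow it, DDIT3 encodes CHOP, a factor that ATF4 induces and that drives genes of cell death. DDIT3 was at 42.9, 45.4 and 46.4 CPM in DMSO and at 28.0, 29.96 and 27.9 CPM in B23. The groups were apart, with a 1.57-fold lower mean in B23 (log2 difference -0.64, SE 0.043). Part of its reads is uncertain, because DDIT3 shares 982 bases with MARS and 1028 bases with MBD6, both on the opposite strand and at 599% and 105% of its mean CPM, and the labels do not say whether the counting used strand. MARS was lower in B23 (248 and 192 CPM) and MBD6 higher (27.7 and 49.3 CPM). On the same strand AC022506.1 overlaps DDIT3 over 2769 bases, at 8.02% of the mean CPM of DDIT3 (3.83 CPM in DMSO and 2.07 CPM in B23). The part of these overlapping genes in the DDIT3 value was not tested.

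CEBPB, the single-exon gene of C/EBP beta, had the second-largest difference of the 10. Its values were 42.1, 39.2 and 38.6 CPM in DMSO and 10.6, 10.3 and 11.4 CPM in B23. The B23 libraries lay close together and far below the DMSO libraries, with a 3.71-fold lower mean (log2 difference -1.84, SE 0.051). CEBPG encodes C/EBP gamma, a partner that binds DNA together with ATF4, and was measured at 395, 391 and 365 CPM in DMSO and at 209, 216 and 215 CPM in B23. These groups were apart too, with means of 383 ± 16.5 and 213 ± 3.43 CPM (SD, n = 3) and a log2 difference of -0.85 (SE 0.036).

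CHAC1 encodes a cyclotransferase that degrades glutathione and is one of the most inducible targets of the ATF4 and CHOP pathway. It was at 41.2, 40.5 and 40.97 CPM in DMSO, or 2463 to 2601 reads, and at 2.20, 1.74 and 1.40 CPM in B23, or 70 to 112 reads. The means of 40.9 ± 0.350 and 1.78 ± 0.402 CPM (SD, n = 3) differ 22.9-fold, so 4.36% of the DMSO level was left. Its log2 difference of -4.20 (SE 0.094) was the second lowest of the 14792 genes tested, behind the -4.24 of MYC. By ratio of mean CPM, without the pseudocount, the order was the other way, at 22.9-fold for CHAC1 and 19.7-fold for MYC. The coefficient of variation of CHAC1 was 0.856% over the DMSO libraries and 22.5% over the B23 libraries, against medians of 3.71% and 3.89% over all tested genes. CHAC1 has 3 exons in its longest coding transcript and lies on chromosome 15 from 40952962 to 40956519 in GRCh38, with no overlapping gene of the table.

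TRIB3 encodes a pseudokinase that ATF4 and CHOP induce and that restrains AKT and ATF4 itself. Its values were 65.0, 67.5 and 62.1 CPM in DMSO and 31.7, 31.9 and 34.4 CPM in B23. The 3 B23 libraries lay close together at about 50.3% of the DMSO mean, a log2 difference of -0.98 (SE 0.042).

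DDIT4 and SESN2 both encode restraints of the growth kinase mTORC1. DDIT4 (REDD1), which acts through the TSC complex, was at 193, 188 and 189.5 CPM in DMSO and at 119, 111 and 117 CPM in B23. SESN2, a sestrin that binds leucine and acts on the GATOR complexes, was at 113, 115 and 121 CPM in DMSO and at 80.6, 77.6 and 81.4 CPM in B23. In both genes the groups were apart, with means 1.65-fold and 1.45-fold lower in B23 and log2 differences of -0.72 (SE 0.034) and -0.54 (SE 0.036).

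ASNS and STC2 differed from the other 8 genes in direction or size. ASNS, the asparagine synthetase gene and a classical target of the amino acid response, was at 364, 398 and 404 CPM in DMSO and at 400.03, 396 and 401 CPM in B23. All 3 B23 values lay within the DMSO range, and the log2 difference was 0.039 (SE 0.038). The table also lists AC079781.5, which spans ASNS on the same strand, at 98.7% of the mean CPM of ASNS, so the reads cannot be assigned to one of the 2 genes. STC2, a secreted glycoprotein gene induced by stress, was at 159, 154 and 153 CPM in DMSO and at 171, 172 and 173 CPM in B23. The groups did not overlap and the mean was 11.0% higher in B23 (log2 difference 0.15, SE 0.032), but this direction turned with quantile normalization (-0.34) and with scaling to the total of the listed genes (-0.10).

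**Figure D2:**
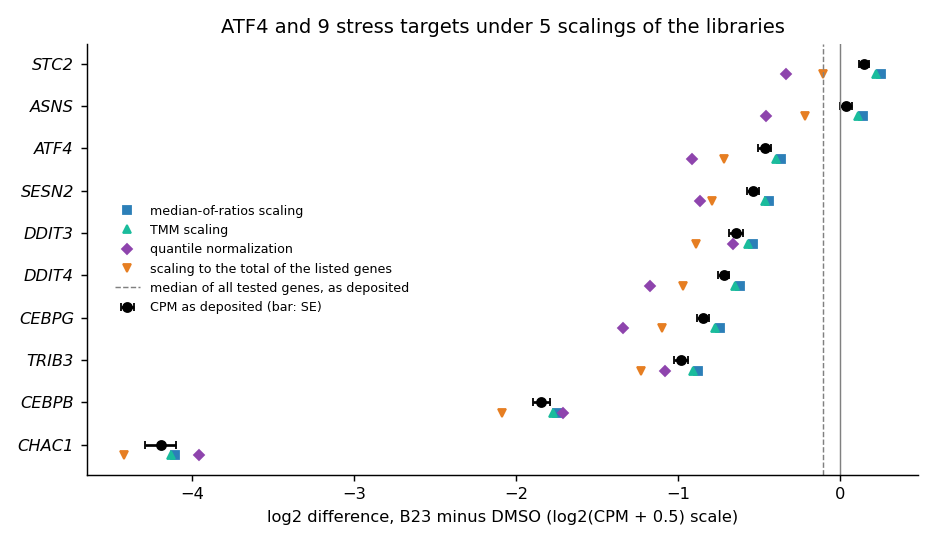
Log2 difference of B23 minus DMSO for ATF4 and 9 stress targets, on the log2(CPM + 0.5) scale; black points are the CPM as deposited with the SE of the fit, coloured points are 4 other scalings, and the dashed line is the median of all tested genes. CHAC1 (-4.20) and CEBPB (-1.84) stand to the left under each scaling, while ASNS and STC2 change side of 0.

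The scaling of the libraries sets where 0 lies. The CPM of the listed genes added up to 745216 to 753745 per DMSO library and to 890367 to 900113 per B23 library, a difference that goes with the groups and whose part in the results was not tested beyond the scalings given here. Scaling to the total of the listed genes moved the median of all genes by -0.24 from -0.10, and under it all 10 genes were below 0, as they also were with quantile normalization. Relative to the median gene, the median of the 10 genes was -0.59 to -0.57 under the 4 scalings that use 1 factor per library, and -0.97 with quantile normalization. The genes ATF4, DDIT3, CEBPB, CEBPG, CHAC1, TRIB3, DDIT4 and SESN2 were below 0 in the reported fit and in all 18 alternatives.

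Ratios within a library need no scaling. The CPM of SESN2 was 20.01 ± 0.582% of that of ATF4 in DMSO and 19.0 ± 0.172% in B23 (SD, n = 3), so the 2 transcripts were lower by nearly the same proportion. DDIT3 stood at 7.73 ± 0.0887% and 6.82 ± 0.449% of ATF4. CHAC1 was at 7.05 ± 0.404% of ATF4 in DMSO, close to the 6.91 ± 0.692% of CEBPB, and at 0.425 ± 0.10% and 2.56 ± 0.0671% in B23. In contrast, the ratio of ASNS to ATF4 was 66.9 ± 0.672% in DMSO and 94.9 ± 1.94% in B23, and that of STC2 was 26.8 ± 1.96% and 40.96 ± 1.04%. The targets of ATF4 thus did not keep a common ratio to its mRNA.

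Levels of different genes were compared as CPM per kb of exon. The length counts each base in any annotated exon of the gene once, so the order also depends on the annotation. In DMSO the order was ATF4 (231 ± 11.8), DDIT4 (92.5 ± 1.15), ASNS (87.3 ± 4.88), CEBPG (86.9 ± 3.74), DDIT3 (34.4 ± 1.37), SESN2 (33.6 ± 1.16), STC2 (25.3 ± 0.523), CEBPB (20.4 ± 0.968), CHAC1 (19.9 ± 0.170) and TRIB3 (18.9 ± 0.795 CPM per kb, SD, n = 3). The neighbours ASNS and CEBPG, DDIT3 and SESN2, and CEBPB and CHAC1 overlapped between libraries. In B23 ATF4 remained the highest (167 ± 4.57 CPM per kb), ASNS was second (89.5 ± 0.662) and CHAC1 last (0.866 ± 0.195), below CEBPB (5.51 ± 0.289) and TRIB3 (9.51 ± 0.444). There SESN2 and DDIT3 were the neighbours that overlapped.

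**Figure D3:**
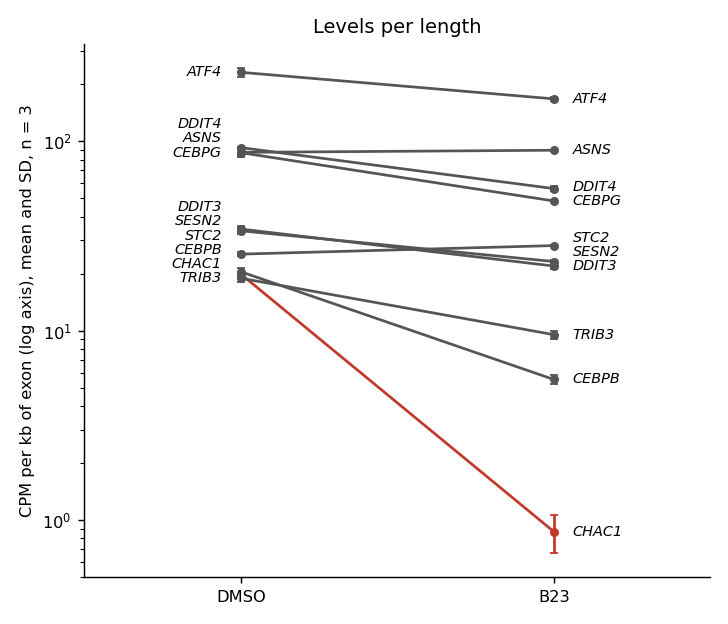
Level per length of ATF4 and 9 stress targets, as CPM per kb of exon on a log axis, mean and SD of 3 libraries in DMSO and in B23, with CHAC1 in red. CHAC1 starts beside CEBPB and TRIB3 near 20 CPM per kb and ends at 0.866, while ASNS and STC2 run almost level.

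The genes most like CHAC1 in their pattern were found by the root-mean-square distance between log2(CPM + 0.5) profiles over the 6 libraries, each centred on its DMSO mean, among 12051 other genes whose mean reached 5 CPM. The nearest were MYC (distance 0.17), AL139246.5 (0.22, overlapping HES5 on the opposite strand), HPS6 (0.48), MAT2A (0.52, overlapping GGCX on the opposite strand) and DEPP1 (0.56, overlapping RASSF4 on the opposite strand), against a median distance of 2.97. Their levels in B23 were 5.06%, 4.63%, 7.50%, 8.91% and 7.85% of those in DMSO. Of the 10 genes, CEBPB was nearest to CHAC1 at 1.67 and STC2 farthest at 3.08. With 2 groups this distance mostly reads the size of the log2 difference, so the nearest genes are others with a large fall in B23, and AL139246.5, HPS6 and DEPP1 reached the mean of 5 CPM only through DMSO.

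Other genes of the pathway were counted in 10 lists that hold none of the 10 genes, and these were tested with limma across all 14792 genes. Of 148 different genes tested, 73 were higher, 62 lower and 13 did not pass the test, or 49.3% higher and 41.9% lower, where all tested genes had 39.6% higher and 49.0% lower. This balance turned with the scaling, since 51 to 78 were higher and 55 to 83 lower over the alternatives. The counts of every list below stand against the same shares, 39.6% higher and 49.0% lower, of all tested genes. Some genes count in several lists, such as CEBPA among the bZIP factors and among the relatives.

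The relatives of the 10 genes by sequence family were tested first. Of 12 relatives 8 fell and 4 rose (median log2 difference -0.68). The pseudokinase genes TRIB1 and TRIB2 fell 3.96-fold and 3.81-fold, TRIB2 from 73.5 ± 3.43 to 19.3 ± 0.496 CPM (SD, n = 3; log2 difference -1.90, SE 0.042, limma adjusted p = 3.52e-22). CHAC2, the second gene of the glutathione-degrading family, fell 1.87-fold from 25.3 ± 0.717 to 13.5 ± 0.587 CPM (limma adjusted p = 3.01e-14), and it overlaps ASB3 and GPR75-ASB3 on the opposite strand. SESN3 rose 2.05-fold, and STC1 rose 3.91-fold to 15.7 ± 0.450 CPM (SD, n = 3), where SESN2 was lower and STC2 was 11.0% higher. STC1 was below 5 CPM in each DMSO library and reached the mean of 5 CPM for naming only through B23.

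Genes around eIF2 were more often higher than lower. Of 17 genes of eIF2 kinases and the eIF2 machinery 13 passed the test higher and 3 lower, with 1 not called (median 0.37), against 39.6% and 49.0% of all tested genes. With quantile normalization 10 were higher and 6 lower, and with libraries scaled to the summed CPM of listed genes 11 and 5, at medians of 0.12 in both. PPP1R15A, which encodes GADD34, the stress-induced subunit that directs a phosphatase to eIF2, was at 95.9, 93.8 and 95.4 CPM in DMSO and at 481, 473 and 484 CPM in B23. It rose 5.04-fold (log2 difference 2.33, SE 0.032, limma adjusted p = 5.64e-26), and PPP1R15B, its constitutive counterpart, rose 2.88-fold. IMPACT, an inhibitor of the amino acid sensing kinase GCN2, fell 1.93-fold, and EIF2S3, a subunit of eIF2, fell 1.34-fold. EIF2AK4, the gene of GCN2 itself, was lower too, by 1.32-fold. The other eIF2 kinase genes passed the test higher, EIF2AK3 by 1.75-fold, EIF2AK1 by 1.28-fold and EIF2AK2 by 1.10-fold. A copy of the small RNA RF00019 overlaps IMPACT on the same strand.

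The other bZIP factors of the ATF and C/EBP families were split, with 7 of 17 higher, 7 lower and 3 that did not pass the test (median 0.023). With scaling to the total of the listed genes 7 were higher and 10 lower. ATF3, a factor that ATF4 induces under stress, was at 96.8, 93.5 and 92.6 CPM in DMSO and at 490, 476 and 504 CPM in B23, a 5.19-fold rise opposite to CHAC1. CREBRF rose 4.84-fold, while CEBPA fell 3.36-fold from 24.4 ± 0.334 to 7.26 ± 0.283 CPM. JDP2 fell 1.81-fold from 7.98 ± 0.266 to 4.41 ± 0.528 CPM (SD, n = 3), and it reached the mean of 5 CPM for naming only through DMSO.

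Genes of amino acid supply were divided as well. Of 13 synthesis genes 8 fell and 5 rose (median -0.45). PSAT1, the serine synthesis aminotransferase gene, fell 2.05-fold from 317 ± 6.83 to 155 ± 3.02 CPM and BCAT1 fell 2.07-fold, whereas MTHFD2 and GOT1 rose 1.49-fold and 1.42-fold. Of 12 transporter genes 8 fell and 4 rose (median -0.38). SLC7A11, the cystine transporter chain, fell 2.37-fold and SLC6A9 fell 2.70-fold, the latter overlapping CCDC24 on the opposite strand. SLC3A2, the heavy chain that pairs with SLC7A11, rose 2.72-fold from 224 ± 6.44 to 610 ± 15.1 CPM, and SLC36A4 rose 3.47-fold. Of 13 genes of tRNA charging and export 7 passed the test higher and 4 lower, with 2 not called (median 0.17), with TARS 1.70-fold and GARS 1.60-fold higher and EPRS 1.38-fold and MARS, which overlaps DDIT3, 1.29-fold lower. With quantile normalization 3 of these 13 were higher and 8 lower (median -0.36).

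Other stress targets of ATF4 and CHOP had 12 of 22 higher, 9 lower and 1 that did not pass the test (median 0.21). With libraries scaled to the summed CPM of listed genes, 10 were higher and 11 lower (median -0.044). With quantile normalization 10 were higher and 10 lower. SQSTM1, the autophagy receptor gene that overlaps MGAT4B on the opposite strand, rose 9.94-fold and GADD45A rose 8.06-fold. TXNIP, a thioredoxin inhibitor gene, fell 4.08-fold from 243 ± 6.12 to 59.6 ± 1.86 CPM and PCK2, a mitochondrial enzyme gene, fell 2.07-fold.

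Around the enzyme function of CHAC1, 7 of 13 tested genes of glutathione synthesis and turnover passed the test higher and 4 lower, with 2 not called (median 0.11). GPX4, the lipid peroxide reductase gene, rose 1.62-fold, GGT7, which overlaps ACSS2 on the opposite strand, rose 1.35-fold and LANCL1 fell 1.58-fold. With scaling to the total of the listed genes this list had 3 higher and 7 lower. Around DDIT4 and SESN2, 8 of 18 genes of mTORC1 restraint and of the mTORC1 complex passed the test higher and 7 lower, with 3 not called (median 0.024). MTOR, the kinase gene, rose 1.81-fold and BMT2 (SAMTOR), a methionine sensor gene, rose 2.32-fold, while RPTOR fell 1.65-fold and WDR24 fell 1.60-fold. With scaling to the total of the listed genes 4 were higher and 11 lower.

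Genes of the IRE1 and ATF6 arms, which answer unfolded proteins beside the ATF4 arm, had 7 of 16 higher, 8 lower and 1 that did not pass the test (median -0.094). The chaperone-related genes SDF2L1 and PDIA4 fell 2.98-fold and 1.81-fold. SDF2L1 was below 5 CPM in each B23 library and reached the mean of 5 CPM for naming only through DMSO. ERN1, the gene of the sensor IRE1, rose 1.43-fold, and CALR rose 1.39-fold, a call that was lost with quantile normalization (log2 difference 0.017). With scaling to the total of the listed genes 3 of the 16 were higher and 10 lower.

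**Figure D4:**
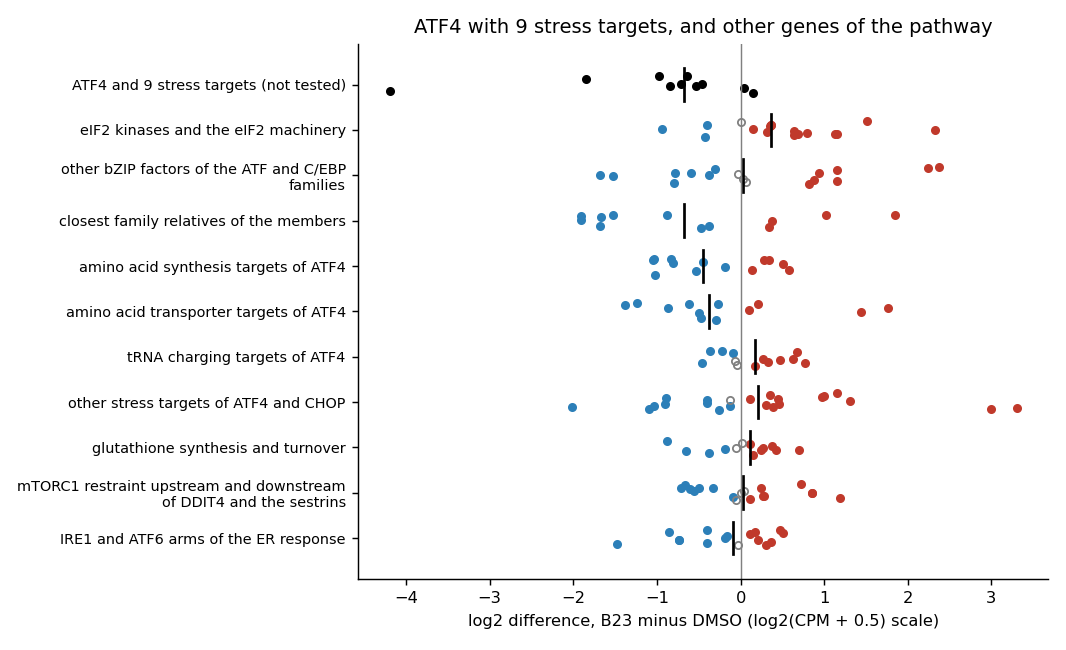
Log2 difference of B23 minus DMSO on the log2(CPM + 0.5) scale, 1 point per gene, for ATF4 with 9 stress targets (black, not tested) and for 10 lists of other pathway genes, in red where higher, in blue where lower and as open circles where the limma test was not passed; vertical bars are medians. The relatives of the 10 genes have a median of -0.68 and the eIF2 machinery one of 0.37, and every list holds genes on both sides of 0.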

How the data were processed

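Polyadenylated RNA of 6 HEK293 libraries was sequenced after library preparation with a stranded kit, per the labels' protocols. The submitters' processing notes name hg38 with the tools STAR 2.6.1d, HTSeq, SAMtools and edgeR, without order or settings. The deposited values are CPM per gene symbol, per the labels and the values; 100% were whole multiples of 1 read within 0.001 reads, so whole reads were recovered, and edgeR called 13120 genes on them, against 13111 by limma.

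Genes whose mean over the libraries reached 1 CPM were tested as log2(CPM + 0.5) with limma 3.58.1 (R 4.3.3, trend and robust empirical Bayes, two-sided, Benjamini-Hochberg over 14792 genes, threshold 0.05). Folds are ratios of mean CPM. The pseudocount understates log2 differences of low genes. Alternatives were pseudocounts of 0.1 and 2, other filters, 4 scalings, plain empirical Bayes, a replicate block, edgeR 4.0.16, DESeq2 1.42.0 and each library left out. The test was tried on simulated data.

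The genes and lists were chosen with earlier results of these data known. From each list up to 2 called genes per direction were named, by size, at a mean of at least 5 CPM. EIF2AK4 was named in addition, as the gene of the kinase that IMPACT inhibits, and the other eIF2 kinase genes were named beside it. CEBPB-AS1, DDIT4-AS1 and AC022506.1 were named after their values were seen. Positions and exon lengths come from GENCODE 29 on GRCh38, the assembly of hg38; promoters come from RefSeq. Other overlapping genes are named from 10% of the mean of a gene.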

Additional observations from a re-analysis of the deposited data

How the results depend on the processing

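Over the 18 alternatives the counts over all genes and over the pooled pathway lists stayed within 1.5 times of those reported: 10794 to 13404 of all genes and 127 to 136 of the other pathway genes (51 to 78 higher, 55 to 83 lower) were called. Counts of single lists moved more, to 3 higher for the tRNA list with quantile normalization and to 3, 4 and 3 higher for the glutathione, mTORC1 and IRE1 and ATF6 lists with scaling to the total of the listed genes. Of 40 pathway genes named by size, 39 kept direction and call in all of them, and CALR lost its call with quantile normalization. The median log2 difference of the 10 genes, -0.68 as reported, was -0.66 with a pseudocount of 2 CPM, -0.58 with median-of-ratios scaling, -0.61 with TMM scaling, -0.99 with quantile normalization, -0.93 with scaling to the total of the listed genes, -0.68 in both edgeR and DESeq2, and -0.69 to -0.67 with 1 library left out. The sign of STC2 changed with quantile normalization (-0.34) and with scaling to the listed genes (-0.10). ASNS ran from -0.46 to 0.14. CHAC1 ran from -4.52 in DESeq2 to -3.51 with a pseudocount of 2 CPM, and its B23 level rests on 70 to 112 reads per library. The cause of these moves was not tested. No pairing by replicate number was seen. Same-numbered libraries correlated with r of -0.091 to 0.052 in their deviations from the group means, and not every library correlated best with its own number. With 3 libraries per group these values cannot settle whether the libraries were paired. With the replicate block 13106 genes were called, and 135 of the other pathway genes.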

Other observations

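Antisense transcripts beside 2 of the genes had rows of their own. CEBPB-AS1, which shares 765 bases with CEBPB on the opposite strand, was at 3.07, 3.14 and 3.02 CPM in DMSO and at 0.197, 0.217 and 0.261 CPM in B23, lower in each B23 library as CEBPB was. DDIT4-AS1 was below 1 CPM in each library, with means of 0.424 CPM in DMSO and 0.233 CPM in B23, and was not tested. Reads from a gene and its antisense partner cannot be told apart without the strand setting, and the part of CEBPB in the CEBPB-AS1 row was not tested.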
